A study of Pyrus pyrifolia with 6 samples.

Results

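Genes of light signalling and the circadian clock were followed in pear fruit with watercore, a disorder in which the flesh turns water-soaked and translucent. The members were the protein-coding genes whose product name held CONSTANS, APRR, phytochrome, cryptochrome, GIGANTEA, protein LHY, REVEILLE, EARLY FLOWERING, dof zinc finger or GATA transcription factor. This gave 149 of the 38969 genes in the deposited table, of which 34996 were protein-coding. RNA from healthy pulp and from watercore pulp of Pyrus pyrifolia was sequenced in 3 libraries per group. According to the labels, both groups came from orchard fruit of the cultivar Qiurong at 120 days and differ in the state of the pulp. The labels name skin as the organ and pulp as the treated tissue, while the methods of the study name pulp as the tissue sequenced. The organ given in the labels could not be settled. The methods use another cultivar name and another harvest day, and whether both names stand for the same cultivar could not be settled. Neither the labels nor the methods give the hour of picking, the number of fruits behind a library or whether fruits were pooled.

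Plants read light with phytochromes, which sense red and far-red light, and with cryptochromes, which sense blue light. A clock of mutually repressing regulators keeps daily time in nearly every plant cell. In Arabidopsis the Myb-type factor LHY and its REVEILLE relatives act in the morning, the pseudo-response regulators APRR7 and APRR5 follow through the day, and APRR1 (TOC1), GIGANTEA and the EARLY FLOWERING proteins act towards evening. CONSTANS-like, Dof and GATA proteins are zinc finger transcription factors, several of which act in the photoperiod and light responses. The roles given below are those known in Arabidopsis. Since single clock genes swing over the day, an hour of picking that differed between the groups could not be told apart from watercore itself.

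The libraries held between 14382020 and 15290688 counts. Counts were scaled by TMM and divided by library size (CPM), and FPKM, which also divides by gene length, was used to compare levels between genes. Of the 149 members, 83 were abundant enough to be tested and 66 were not, 25 of which had no count in any library. The untested members reached at most 49 counts over all libraries and a mean of 0.49 FPKM. A gene was called when edgeR's quasi-likelihood test gave a Benjamini-Hochberg adjusted p under 0.05 over all 21200 tested genes and the absolute log2 fold change was at least 1. Fold changes are watercore over healthy pulp, ± SE, and levels are means ± SD (n = 3), given for healthy pulp first and watercore pulp second. The p-values measure the spread between these libraries, which the methods call biological replicates without saying whether they came from separate trees.

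Of the 83 tested members, 21 were called higher and 6 lower in watercore pulp. This is 25.3% and 7.23% of them, against 17.6% and 7.54% of all tested genes (25.1% in either direction). Without the minimum fold, 36 members rose and 20 fell, 67.5% together against 62.6% of all tested genes (32.3% higher and 30.4% lower). The 3 watercore libraries lay entirely above or below the 3 healthy libraries for 62 members, or 74.7%, against 69.2% of all tested genes. Of these 62, 37 lay above and 25 below, against 35.5% and 33.8% of all tested genes. The median log2 fold change was 0.25 for the tested members and 0.00 for all tested genes. The members' summed level went from 2195 ± 96.4 to 2607 ± 22.1 CPM. A single gene in it, LHY-like LOC103927985, went from 251 ± 28.6 to 498 ± 32.0 CPM. Of the 21 members called higher, 11 passed the filter on low counts only through the watercore libraries, so that these could hardly have been tested without a rise. Of the 6 called lower, 1 passed it only through the healthy libraries. In bulk tissue, more cells of a type and more RNA per cell cannot be told apart.

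Markers of other tissues were read in the same libraries. Green tissue markers summed to 965 to 997 CPM over the healthy libraries against 1001 to 1108 CPM over the watercore ones. Among these 32 genes 13 were tested, with 2 called higher and 4 lower. A single ribulose bisphosphate carboxylase small chain gene, LOC103928816, made up most of both sums (mean 884 against 970 CPM). The sums thus do not show a rise shared by the green tissue markers. Skin and cuticle markers summed to 110 to 117 CPM and 106 to 117 CPM, with 2 higher and 1 lower of 8 tested among 51 genes. Vascular markers summed to 659 to 725 CPM and 606 to 728 CPM, with 10 higher and 3 lower of 21 tested among 81 genes. The sum of the seed storage and oil body genes was far higher with watercore, at 163 to 214 against 1678 to 1838 CPM. Among these 26 genes 10 were tested, with 5 called higher. A single 11S globulin gene, LOC103946294, went from a mean of 5.10 to 682 CPM within that sum. Of those 26 seed genes, 10 were at 0 in all libraries, among them a legumin type B-like and the vicilin-like At2g28490 genes. The part of the marker genes in the results below was not tested.

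**Figure D1:**
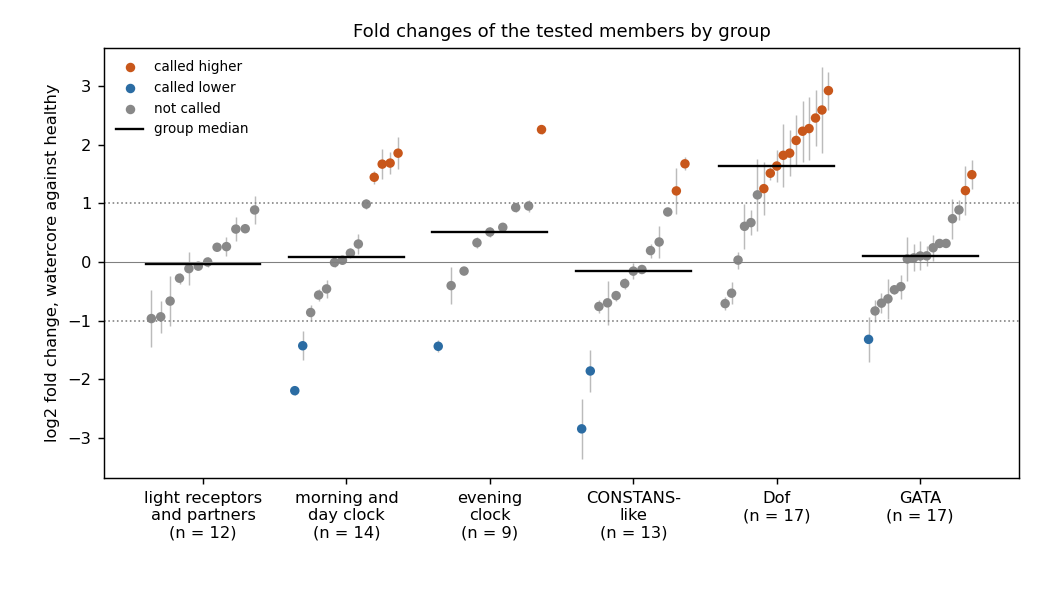
Log2 fold change (watercore against healthy pulp) of 82 of the 83 tested members, by group, with grey bars for the SE, black lines for group medians and dotted lines at a log2 fold change of 1 and −1. The APRR2 gene is not drawn. The clock groups spread to both sides of 0, and 11 of 17 Dof genes were called higher, against 17.6% of all tested genes. Of these 11, 8 passed the filter on low counts only through the watercore libraries.

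The 2 smallest adjusted p-values among the tested members belonged to clock genes, an APRR1 and an APRR5 gene. The clock groups held 23 tested members, 1 of which, PIE1, was drawn in by its name and is no clock gene. The 22 others passed the filter in both groups, and 5 were called higher and 3 lower. This is 22.7% and 13.6% of them, against 17.6% and 7.54% of all tested genes. The summed level of the clock members without PIE1 went from 1074 ± 66.3 to 1291 ± 15.6 CPM. Within it LHY-like LOC103927985 alone went from 251 ± 28.6 to 498 ± 32.0 CPM, so the sum does not show a rise shared by the clock genes. The 5 called higher were 4 Myb-type REVEILLE genes and the APRR1 gene, and the 3 called lower were an APRR5, an APRR7 and a GIGANTEA gene.

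LHY, the Myb-type repressor at the centre of the morning loop, was the most abundant clock gene by FPKM. LOC103927985 (protein LHY-like) stood at 218, 269 and 267 CPM in the healthy libraries and at 462, 508 and 524 CPM in the watercore libraries. The groups did not overlap, and every watercore library was well above the highest healthy one. The log2 fold change was 0.99 ± 0.09 (adjusted p = 2.0e-05), just under the fold required for a call. It passed that fold with RLE scaling (1.01), with genes of at least 10 counts in every library (1.05), and when healthy replicate 2 (1.04), healthy replicate 3 (1.03) or watercore replicate 1 (1.04) was left out. An offset for gene length, which removes the trend of fold changes with length over all genes, gave 0.70.

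REVEILLE 1 (RVE1) and REVEILLE 7 are Myb-type relatives of LHY that carry clock output, RVE1 into auxin production. RVE1, LOC103959917, rose from 6.25, 5.63 and 9.66 CPM to 22.3, 23.5 and 23.4 CPM, a log2 fold change of 1.69 ± 0.19 (adjusted p = 6.6e-05). The RVE1-like gene LOC103956805 read 10.5, 8.37 and 10.2 CPM against 27.4, 25.3 and 26.4 CPM, a log2 fold change of 1.44 ± 0.11 (adjusted p = 1.0e-05). Both genes thus rose to a similar level on the CPM scale, with no overlap between groups. The REVEILLE 7-like gene MYBR was far less abundant, and rose from 1.09, 1.34 and 0.917 CPM to 4.35, 4.52 and 3.30 CPM (log2 fold change 1.85 ± 0.27, adjusted p = 0.00035).

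REVEILLE 8, 6 and 3 form the other branch of the family and act as activators of evening genes. In contrast to the RVE1 branch, only the low REVEILLE 6-like gene LOC103966168 was called there, with 1.22, 1.14 and 1.69 CPM against 4.41, 3.83 and 4.67 CPM (log2 fold change 1.67 ± 0.26, adjusted p = 0.00046). A more abundant REVEILLE 6-like gene, LOC103964332, fell from 28.3 ± 6.4 to 20.6 ± 1.0 CPM (log2 fold change −0.46 ± 0.15, adjusted p = 0.026). The remaining 4 did not pass the test. REVEILLE 3 (LOC103941335) gave 0.15 on the log2 scale (adjusted p = 0.13), REVEILLE 3-like (LOC103956310) −0.01 (adjusted p = 0.92), REVEILLE 6-like (LOC103958216) 0.03 (adjusted p = 0.70) and REVEILLE 8 (LOC103934272) 0.31 (adjusted p = 0.13). These 4 are the genes of the branch whose groups overlapped. The first 3 varied little, with SE between 0.06 and 0.08.

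APRR5 and APRR7 repress LHY during the day. All 4 tested genes of these names fell, and none of their watercore libraries reached a healthy one. Over all tested genes, 33.8% had every watercore library below every healthy one. The APRR5 gene LOC103943360 (scaffold NW_008988059.1, 484336 to 488304 in the coordinates of the table) fell from 133, 135 and 148 CPM to 32.2, 28.0 and 30.8 CPM. The log2 fold change was −2.19 ± 0.07 (adjusted p = 1.5e-07), a 4.57-fold lower level. The other APRR5 gene, LOC103951583, fell less, from 33.6, 29.1 and 37.9 CPM to 18.2, 20.5 and 16.7 CPM (log2 fold change −0.86 ± 0.12, adjusted p = 0.00028). Among the APRR7 genes, LOC103948926 went from 5.44, 6.36 and 4.16 CPM to 1.91, 2.30 and 1.72 CPM (log2 fold change −1.43 ± 0.25, adjusted p = 0.00097). The more abundant APRR7 gene LOC103934049 went from 41.3 ± 4.5 to 28.0 ± 1.5 CPM and was not called (log2 fold change −0.56 ± 0.10, adjusted p = 0.00086). Another 2 APRR7 genes and 1 REVEILLE 6-like gene were too low to test.

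APRR1, known as TOC1, is the evening repressor of LHY. The APRR1 gene LOC103931384 (scaffold NW_008988546.1, 239047 to 243748) rose from 18.2, 19.4 and 20.5 CPM to 93.6, 90.7 and 93.5 CPM. Within each group the libraries were nearly equal, and the groups stood far apart. The log2 fold change was 2.26 ± 0.07 (adjusted p = 8.9e-08), a 4.78-fold higher level. It lay between 2.11 and 2.32 over the 14 alternatives of processing. The other APRR1 gene, LOC103931191, rose from 29.4, 29.0 and 28.6 CPM to 46.5, 42.4 and 42.1 CPM and was not called (log2 fold change 0.59 ± 0.07, adjusted p = 0.00013).

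GIGANTEA, a large scaffold protein that links the clock to flowering and to protein turnover, was also present as a pair of genes. LOC103929075 (scaffold NW_008988472.1, 93298 to 102991) fell from 78.2, 77.1 and 98.3 CPM to 30.6, 32.3 and 30.7 CPM, a log2 fold change of −1.44 ± 0.10 (adjusted p = 4.9e-06). LOC103927895, the more abundant one, went from 173, 170 and 181 CPM to 161, 149 and 160 CPM (log2 fold change −0.15 ± 0.06, adjusted p = 0.039). The groups did not overlap for either gene, but the difference was small in the second. With an offset for gene length the values were −1.86 and −0.59.

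EARLY FLOWERING 3 and 4 belong to the evening complex, which represses APRR7 and growth genes at night. EARLY FLOWERING 3-like LOC103929644 rose from 41.2 ± 5.4 to 79.8 ± 6.7 CPM, with a log2 fold change of 0.95 ± 0.10 (adjusted p = 5.5e-05). It passed the fold required for a call with at least 10 counts in every library (1.02), without healthy replicate 3 (1.07) and without watercore replicate 3 (1.02). The second such gene, LOC103951808, rose with a log2 fold change of 0.51 ± 0.09 (adjusted p = 0.00080), and 0.29 with an offset for gene length. EARLY FLOWERING 4-like LOC103960741 rose slightly, with a log2 fold change of 0.33 ± 0.09 (adjusted p = 0.011), and 0.72 with the length offset. LOC103936752, near 2 CPM, gave −0.40 ± 0.31 (adjusted p = 0.29), with overlapping groups. The name EARLY FLOWERING also drew in LOC103933744, whose Arabidopsis namesake PIE1 is a chromatin remodeller and no clock gene. It rose with a log2 fold change of 0.93 ± 0.08 (adjusted p = 1.3e-05), which dropped to 0.18 with the length offset.

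**Figure D2:**
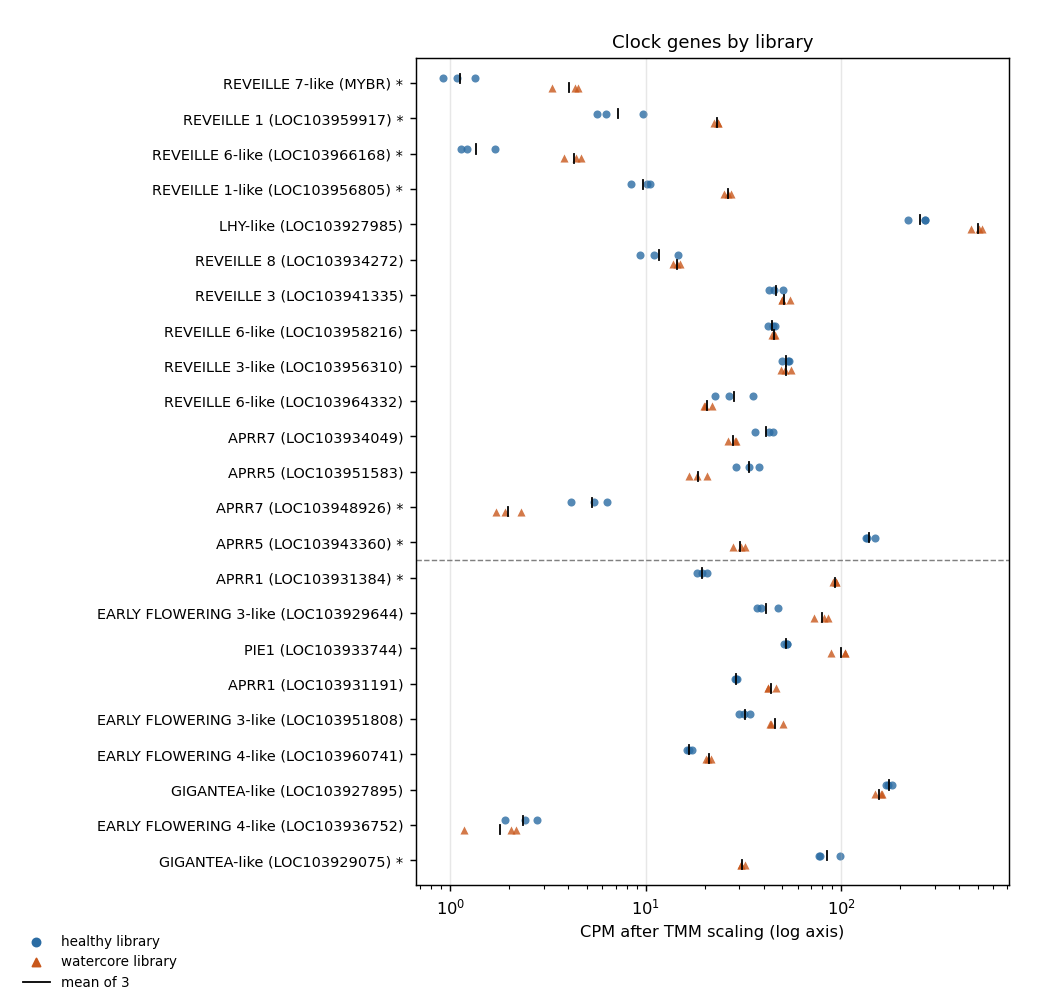
TMM-scaled CPM (log axis) of the 22 tested clock genes and PIE1 in each healthy (circles) and watercore (triangles) library, with bars for the mean of 3, above the dashed line for morning and day genes and below it for evening genes and PIE1. Asterisks mark the 8 called genes. LHY-like and APRR1 LOC103931384 lay higher, and APRR5 LOC103943360 and GIGANTEA-like LOC103929075 lower, in every watercore library.

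Gene copies of one name were also set against each other. For each clock name held by exactly 2 tested genes, 8 names in all, the ratio of their FPKM was taken within each library, a comparison chosen after the values had been seen. The 2 APRR1 genes changed their order. LOC103931384 stood at 0.593 to 0.685 times the level of LOC103931191 in healthy libraries and at 1.92 to 2.12 times in watercore libraries. For GIGANTEA, LOC103927895 was 1.81 to 2.17 times as high as LOC103929075 in healthy libraries and 4.53 to 5.18 times in watercore libraries. The APRR5 ratio, LOC103943360 over LOC103951583, narrowed from between 3.78 and 4.51 to between 1.33 and 1.79. The lead of the more abundant copy thus narrowed for APRR5 and widened for GIGANTEA in every watercore library. The APRR7 ratio, LOC103934049 over LOC103948926, went from between 2.08 and 3.93 to between 4.53 and 5.56. Ratios of the EARLY FLOWERING 3 and 4 pairs also did not overlap between groups. The REVEILLE 1 and REVEILLE 3 pairs overlapped (exact permutation p = 0.40 and 0.20). An exact two-sided permutation test gave p = 0.10 for each of the 6 other pairs, the smallest that 3 against 3 libraries allow, and 0.133 after adjustment over the 8 pairs. No source tells how reads that fit both copies were shared between them, so the level of each single copy is uncertain.

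**Figure D3:**
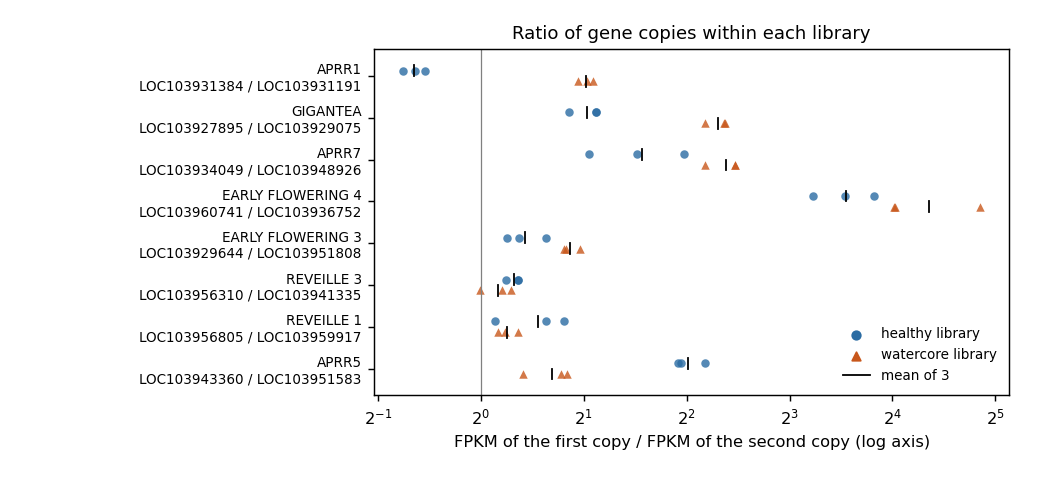
Ratio of the FPKM of 2 genes of the same name in each healthy (circles) and watercore (triangles) library, on a log axis, for 8 clock names, with bars for the mean of 3 and a vertical line at equal levels. The APRR1 ratio crossed from 0.593 to 0.685 in healthy libraries to 1.92 to 2.12 in watercore libraries.

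Clock-associated genes outside the members were read from a list of 14, of which 12 were tested, with 3 called higher and none lower by edgeR and by DESeq2. The 3 are 25% of those tested, against 17.6% of all tested genes. At an unadjusted p under 0.05, 3 were higher and 4 lower. They differed among themselves. PCL1, known as LUX, is the DNA-binding partner of the EARLY FLOWERING proteins. Of its pear genes LOC103964693 rose from 22.8 ± 2.1 to 48.2 ± 3.3 CPM (log2 fold change 1.08 ± 0.09, adjusted p = 1.5e-05), and LOC103954272 gave 0.13 (adjusted p = 0.42). TIME FOR COFFEE, LOC103956606, rose 2.83-fold (SE 0.08 on the log2 scale, adjusted p = 1.7e-06). The length offset gave it a log2 fold change of 0.89, which ends the call. LNK2, a partner of REVEILLE 8, fell with a log2 fold change of −0.74 ± 0.10 in LOC103945582 (adjusted p = 0.00018). The adagio proteins are blue-light receptors that act with GIGANTEA in protein turnover. Of these, adagio 3 (LOC103943084) fell from 210 ± 21 to 155 ± 4.1 CPM (log2 fold change −0.44, adjusted p = 0.00087). One adagio 1-like gene, LOC103934855, also fell (−0.42, adjusted p = 0.0018), and the other, LOC103941419, gave 0.01 (adjusted p = 0.95).

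None of the 12 tested light receptor and partner genes was called by edgeR or by DESeq2. Of all tested genes edgeR called 25.1%. In edgeR 6 of the 12 had an unadjusted p under 0.05, the same 4 that rose and 2 that fell at an adjusted p under 0.05 without a minimum fold. This is 50% of them, against 62.6% of all tested genes at that adjusted p. The log2 fold changes of the 12 lay between −0.96 and 0.89, with a median of −0.04. Their summed level went from 427 ± 12.3 to 479 ± 12.0 CPM.

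Cryptochrome 1 is the main blue-light receptor of seedlings. Among its pear genes LOC103967461 rose from 88.7, 93.2 and 82.9 CPM to 127, 132 and 133 CPM (log2 fold change 0.57 ± 0.06, adjusted p = 5.3e-05). LOC103939713 rose less, from 88.4 ± 7.5 to 105 ± 2.9 CPM (0.25 ± 0.07, adjusted p = 0.013), and LOC103927183 fell from 32.6 ± 2.2 to 26.9 ± 2.4 CPM (−0.28 ± 0.09, adjusted p = 0.030). LOC103967461 and LOC103927183 start within the first 10 bases of their scaffolds. Cryptochrome DASH (LOC103953562), a relative of DNA photolyases, rose from 3.57 ± 0.88 to 6.61 ± 0.98 CPM (0.89 ± 0.23, adjusted p = 0.0093), and passed the fold for a call without healthy replicate 2 (1.06).

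Phytochrome A is the far-red sensor and phytochrome B the main red-light sensor. The main phytochrome A-like gene, LOC103955825, read 59.3, 61.9 and 74.3 CPM in the healthy libraries against 65.4, 65.5 and 64.7 CPM with watercore. The group means were the same, with a log2 fold change of 0.00 ± 0.09 (adjusted p = 1.0), although the offset for gene length gave −0.42 (adjusted p = 0.0018). The other such gene, LOC103930273, gave 0.26 ± 0.16 (adjusted p = 0.19). Both phytochrome B-like genes were under 2.5 CPM in every library, LOC103928909 with −0.11 ± 0.28 (adjusted p = 0.74) and LOC103961302 with −0.67 ± 0.43 (adjusted p = 0.20). Phytochrome C (LOC103935440) rose from 4.82 ± 1.0 to 7.11 ± 0.64 CPM (0.56 ± 0.20, adjusted p = 0.037), and the length offset gave 0.16.

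Phytochrome E-like LOC103943526 fell from 10.3, 9.17 and 5.43 CPM to 3.56, 3.96 and 5.50 CPM, with a log2 fold change of −0.93 ± 0.27 (adjusted p = 0.015). The highest watercore library was just above the lowest healthy one, so the groups overlapped. The change passed the fold for a call without healthy replicate 3 (−1.16), without watercore replicate 3 (−1.14) and with the length offset (−1.31). By FPKM the most abundant member of the group was the phytochrome-associated protein phosphatase LOC103943242, at 97.7 FPKM in healthy and 93.8 FPKM in watercore pulp (log2 fold change −0.07 ± 0.05, adjusted p = 0.27). PHYTOCHROME KINASE SUBSTRATE 1 (LOC103950830), which acts in phototropism, was under 1 CPM in every library (−0.96 ± 0.48, adjusted p = 0.11). Without watercore replicate 1 it was called lower (−1.58, adjusted p = 0.035).

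**Figure D4:**
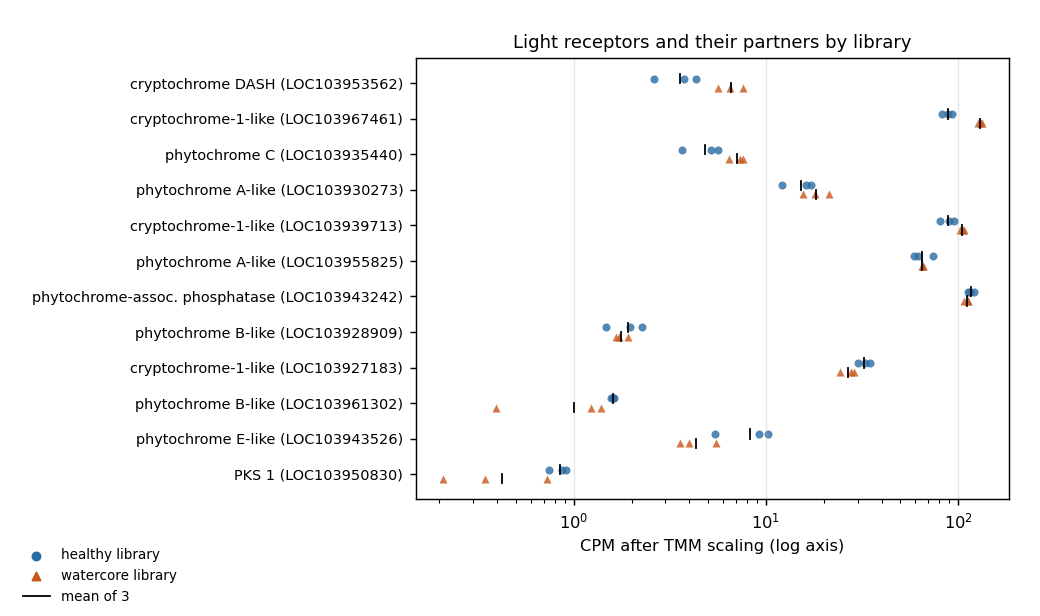
TMM-scaled CPM (log axis) of the 12 tested light receptor and partner genes in each healthy (circles) and watercore (triangles) library, with bars for the mean of 3. No gene was called, against 25.1% of all tested genes. The cryptochrome-1-like gene LOC103967461 lay at 82.9 to 93.2 CPM in circles and at 127 to 133 CPM in triangles.

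Other light and clock pathway genes outside the members were counted from a list of 152 genes. The list includes the clock-associated and adagio genes given above and further light receptors. Of 105 tested, 13 were called higher and 7 lower, 19.0% against 25.1% of all tested genes. Some of these calls, among them LOC103935821 and LOC103958559, passed the filter on low counts only through the group where they were higher. HY5 is a bZIP factor of light signalling, and COP1 with SPA proteins sends it to degradation in the dark. The HY5-like gene LOC103944715 rose from 3.19, 1.61 and 3.81 CPM to 27.1, 25.7 and 24.4 CPM (log2 fold change 3.17 ± 0.24, adjusted p = 7.2e-06). The HY5-like gene LOC103946681 fell from 4.28, 5.22 and 5.71 CPM to 0.725, 1.39 and 0.962 CPM (−2.30 ± 0.29, adjusted p = 0.00015). The third and most abundant in healthy pulp, LOC103940241, gave −0.16 ± 0.11 (adjusted p = 0.24). The first and the second of these HY5-like genes thus went in opposite directions, with no overlap between groups. The B-box gene LOC103934615 (B-box zinc finger protein 24-like), of a family of HY5 partners, rose from 2.72 ± 0.57 to 20.9 ± 0.77 CPM (2.94 ± 0.16, adjusted p = 1.5e-06).

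COP1-like genes rose without being called, LOC103932349 by 0.66 ± 0.07 (adjusted p = 4.8e-05) and LOC103948238 by 0.91 ± 0.12 (adjusted p = 0.00020) on the log2 scale. SPA1-RELATED 4-like LOC103933095 rose from 11.5 ± 2.4 to 38.6 ± 3.3 CPM (1.76 ± 0.14, adjusted p = 1.2e-05). Without a minimum fold, 32.3% of all tested genes rose and 30.4% fell. Of the 27 tested genes of COP1, SPA and the COP9 signalosome, 1 was called higher and 2 lower, and without a minimum fold 5 rose and 12 fell. The largest fall among these was that of the COP9 subunit 7-like gene LOC103958559, from 1.49 ± 0.24 to 0.205 ± 0.073 CPM (−2.81 ± 0.42, adjusted p = 0.00039). With 2, 4 and 3 counts in the watercore libraries, LOC103958559 passed the filter on low counts only through the healthy ones. Of 17 tested genes for ultraviolet and other blue-light receptors, 3 were called higher and 1 lower. The UVR8-like gene LOC103935821 had 2 counts in the healthy and 112 in the watercore libraries, a ratio of 55.5 (exact 95% interval of counting error 15.0 to 464). It passed the filter only through the watercore libraries. UVR8-like LOC103962736 fell (−1.52 ± 0.36, adjusted p = 0.0052). Of 32 tested FAR1-type genes, which act with phytochrome A, 2 were called higher, led by LOC103942538 (1.45 ± 0.23, adjusted p = 0.00051), and 3 lower, led by LOC103963743 (−1.31 ± 0.28, adjusted p = 0.0033). None of 4 tested PIF genes, which phytochromes degrade in light, was called by edgeR or DESeq2, and 2 of them had an unadjusted p under 0.05, 1 in each direction. With limma on log2(FPKM + 1), LOC103958559 (−0.93), LOC103962736 (−0.87), LOC103942538 (0.92) and LOC103963743 (−0.52) fell under the fold for a call. The 3 genes of the florigen list were too low to test. Over all tested genes, 17.6% were called higher and 7.54% lower.

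CONSTANS-like proteins (COL) carry B-box zinc fingers and a CCT domain, and CONSTANS itself couples day length to flowering in leaves. Of 29 such genes, 13 were tested, with 2 called higher and 2 lower, and 3 rose and 5 fell without a minimum fold. The calls are 15.4% in each direction, against 17.6% higher and 7.54% lower among all tested genes. Without a minimum fold, 32.3% of all tested genes rose and 30.4% fell. Of the 2 called higher, 1 passed the filter on low counts only through the watercore libraries. Of the 2 called lower, 1 passed it only through the healthy ones. COL9-like LOC103967216 rose from 7.07, 7.90 and 7.40 CPM to 25.6, 24 and 21.8 CPM (log2 fold change 1.67 ± 0.11, adjusted p = 4.1e-06). A second COL9 gene, LOC103951792, rose from 71.6, 76.3 and 76.7 CPM to 140, 133 and 133 CPM (0.85 ± 0.06, adjusted p = 3.6e-06). These COL9 genes were thus higher in every watercore library, and COL9 is known as a repressor of flowering. A further COL9-like gene, LOC103948032, had 4, 1 and 3 counts against 6, 1 and 4 and was too low to test.

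In the other direction, COL5-like LOC103967895 fell from 5.10, 4.09 and 7.68 CPM to 1.12, 1.18 and 2.34 CPM (−1.86 ± 0.36, adjusted p = 0.0018). COL7-like LOC103933715, near 1 CPM in healthy pulp, fell to 0.158 ± 0.077 CPM (−2.84 ± 0.51, adjusted p = 0.0011). COL4-like LOC103949680, also near 1 CPM, was called higher (1.21 ± 0.39, adjusted p = 0.022). That call was lost without any one of 4 libraries, at adjusted p of 0.061, 0.052 and 0.052 without healthy replicate 1, 2 or 3 and 0.11 without watercore replicate 1. It was also lost in DESeq2 (adjusted p = 0.097). With limma on log2(FPKM + 1) the COL7-like and the COL4-like gene fell under the fold for a call, at −0.35 and 0.48. The most abundant COL gene by FPKM in healthy pulp, and second to COL9 LOC103951792 in watercore pulp, was COL4-like LOC103941857. It moved from 72.9 ± 1.8 to 66.7 ± 1.0 CPM without passing the test (−0.13 ± 0.05, adjusted p = 0.067).

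Genes too low to test still held counts on one side. COL3-like LOC103945666 had 1, 0 and 1 counts in the healthy libraries and 17, 9 and 20 in the watercore libraries, a ratio of 22.8 (exact 95% interval of counting error 5.96 to 194). COL6-like LOC103932920 had no count in healthy libraries and 11, 7 and 8 in watercore libraries, at least 8.59-fold higher when the healthy group is set to the floor of 3 counts in all. Both were detected in every watercore library. The only gene named plainly CONSTANS-LIKE 2, LOC103962706, did not pass the filter, with 20 counts in healthy and 11 in watercore libraries. Grouped by domain instead of name, 28 members were annotated with CCT as their transcription factor family, of which 15 were tested. They had a median log2 fold change of −0.57, with 2 called higher and 3 lower. This set also holds GATA genes and the APRR7 gene LOC103948926, which was called lower, and leaves out COL9 LOC103951792. The tested CONSTANS-like genes taken by name had a median of −0.16. The 10 tested members annotated as Myb, the LHY and REVEILLE type, had a median of 0.65, with 4 called higher and none lower by edgeR and by DESeq2. Of these 10, 5 were higher and 1 lower at an unadjusted p under 0.05. Over all tested genes, 17.6% were called higher and 7.54% lower by edgeR.

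Dof proteins bind AAAG-type motifs with a single zinc finger and take part in vascular development, seed storage and light responses. Of 44 such genes, 17 were tested, and edgeR called 11 higher and none lower, DESeq2 10 and none. The 11 are 64.7% of those tested, against 17.6% of all tested genes. Without a minimum fold 12 rose and 2 fell, as many as at an unadjusted p under 0.05. Among all tested genes, 32.3% rose and 30.4% fell without a minimum fold. Of the 11 called, 8 passed the filter on low counts only through the watercore libraries, so the count does not measure the group as a whole. The summed seed storage transcripts described above were also higher in these libraries, and of 21 tested vascular markers 10 were called higher and 3 lower. The part of seed and vascular genes in the Dof values was not tested.

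DOF3.5-like LOC103951166 was the highest Dof gene by mean FPKM over both groups, though not in healthy pulp, where DOF5.4 LOC103937962 was higher. It passed the filter in both groups and rose from 15.0, 15.9 and 11.8 CPM to 41.4, 41.2 and 39.3 CPM, with a log2 fold change of 1.51 ± 0.11 (adjusted p = 6.9e-06). The watercore libraries were nearly equal to each other. DOF1.4-like LOC103927830 rose most, from 1.43, 0.737 and 0.705 CPM to 8.56, 5.56 and 7.76 CPM (2.92 ± 0.32, adjusted p = 6.8e-05). DOF1.2-like LOC103941969 rose from 1.46 ± 0.21 to 4.55 ± 0.99 CPM (1.63 ± 0.27, adjusted p = 0.00064).

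The other called Dof genes averaged under 1 CPM in healthy pulp. The DOF4.6-like genes LOC103950153 and LOC103951625 had log2 fold changes of 2.59 ± 0.73 (adjusted p = 0.012) and 2.45 ± 0.48 (adjusted p = 0.0018). DOF2.4-like LOC103935749 gave 2.27 ± 0.53 (adjusted p = 0.0050) and DOF2.5-like LOC103964235 gave 1.82 ± 0.53 (adjusted p = 0.015). Of these, LOC103950153 and LOC103964235 lost the call without watercore replicate 3, at adjusted p of 0.056 and 0.053, and LOC103964235 also lost it in DESeq2 (adjusted p = 0.059). With limma on log2(FPKM + 1), a scale that shrinks changes of low genes, these 4 fell under the fold for a call, at 0.72, 0.98, 0.63 and 0.58. DOF3.6-like LOC103944938 was called least firmly (1.25 ± 0.45, adjusted p = 0.036) and lost the call without healthy replicate 2 or 3 or watercore replicate 1 or 2, at adjusted p between 0.087 and 0.11, and with limma (0.63). The 3 called Dof genes not named here had log2 fold changes of 1.85 to 2.23. Against these, DOF5.4 LOC103937962, well measured in both groups, fell from 30.2, 32.3 and 34.1 CPM to 20.6, 17.1 and 21.4 CPM (−0.71 ± 0.11, adjusted p = 0.00038).

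The cyclic Dof factors, the Dof proteins known to repress CONSTANS and to be degraded with GIGANTEA, bear another product name and are not members. They were added after the data had been seen. All 6 were tested and rose, 3 of them past the fold for a call, and their summed level went from 115 ± 13.1 to 248 ± 3.9 CPM. The 3 called are 50% of the 6, against 17.6% of all tested genes called higher. Cyclic dof factor 2-like LOC103950811 rose from 2.04, 3.42 and 3.38 CPM to 23.8, 22.8 and 19.7 CPM (2.90 ± 0.19, adjusted p = 3.7e-06). The most abundant in watercore pulp, LOC103964988, rose from 34.9, 34.6 and 39.8 CPM to 85.8, 87.1 and 85.8 CPM (1.24 ± 0.07, adjusted p = 1.7e-06).

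GATA factors, named for the DNA motif they bind, include regulators of greening and of light-responsive promoters. Of 29 such genes, 17 were tested, with 2 called higher and 1 lower, and 5 rose and 4 fell without a minimum fold. The median log2 fold change was 0.10. The calls are 11.8% higher and 5.88% lower, against 17.6% and 7.54% of all tested genes. Without a minimum fold, 32.3% of all tested genes rose and 30.4% fell. Of the 2 called higher, 1 passed the filter on low counts only through the watercore libraries. GATA5-like LOC103938029 rose from 1.63, 1.88 and 2.82 CPM to 5.86, 6.40 and 5.50 CPM (1.49 ± 0.25, adjusted p = 0.00079). GATA1 LOC103955332, near 1 CPM, was called higher (1.22 ± 0.42, adjusted p = 0.031), a call lost in DESeq2 (adjusted p = 0.062) and without any library but healthy replicate 1, at adjusted p between 0.054 and 0.10.

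GATA21, a regulator of chloroplast development that is also called GNC, fell. LOC103951854 went from 3.33, 3.55 and 2.26 CPM to 1.91, 0.765 and 0.962 CPM (−1.32 ± 0.38, adjusted p = 0.014), and the call was lost without watercore replicate 3 (adjusted p = 0.054). With limma on log2(FPKM + 1) the GATA1 and GATA21 genes fell under the fold for a call, at 0.52 and −0.74. GATA26-like LOC103966898, the second most abundant by FPKM in healthy and the first in watercore pulp, rose from 65.1 ± 4.6 to 81.1 ± 1.1 CPM (0.32 ± 0.07, adjusted p = 0.0026). GATA18-like LOC103957816, which is annotated with a CCT domain, fell from 42.2 ± 1.8 to 30.4 ± 1.3 CPM (−0.47 ± 0.07, adjusted p = 0.00049).

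**Figure D5:**
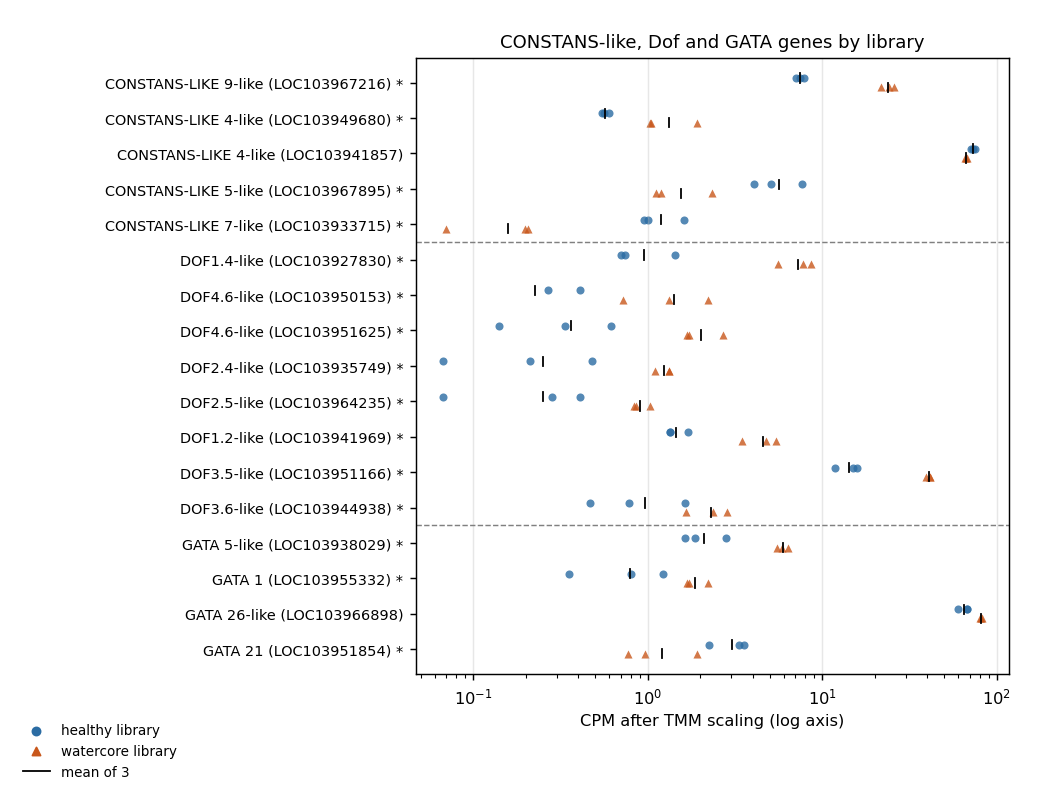
TMM-scaled CPM (log axis) of the CONSTANS-like, Dof and GATA genes chosen by the naming rule, divided by dashed lines, in each healthy (circles) and watercore (triangles) library, with bars for the mean of 3. COL9 LOC103951792, DOF5.4 LOC103937962 and GATA18-like LOC103957816, chosen after their values were seen, are not drawn. Asterisks mark called genes, and the healthy library of DOF4.6-like LOC103950153 at 0 is not drawn. DOF3.5-like LOC103951166 lay at 11.8 to 15.9 CPM in circles and at 39.3 to 41.4 CPM in triangles.

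Of the remaining 6 members, which are regulators named APRR2 or APRR8 outside the clock series, only the APRR2 gene LOC103960428 was tested. It went from 0.136, 0.201 and 0 CPM to 1.25, 2.30 and 0.687 CPM (log2 fold change 3.53 ± 0.75, adjusted p = 0.0029). APRR2 genes are known from pepper and tomato as regulators of fruit pigment. The model starts at base 57 of its scaffold and rests on few counts. The other 5 had too few counts to test.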

How the data were processed

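The authors removed low-quality reads and mapped the rest with Hisat2 to a Pyrus betulifolia genome, as the methods state. The deposited identifiers (LOC names on 1672 scaffolds) do not match the chromosome-based gene names in the study, so the counts may come from another genome. Neither the labels nor the methods give the genome build behind the identifiers, the counting tool or the use of strand. The authors deposited a count per gene and library without normalization, FPKM per library, and 1 scaled signal column per group. They also deposited their own comparison (log2 fold change, p-value and adjusted p-value), none of which was used. All columns with values per library belonged to the 6 libraries, which were grouped by title into 3 healthy and 3 watercore.

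Counts were fitted with edgeR 4.0.16 under R 4.3.3 (TMM, filterByExpr at its default), leaving 21200 genes with a biological coefficient of variation of 0.143. SEs were taken from the log2 fold change and F statistic, intervals and floors (3 counts over a group) cover counting error only, and ratios were tested in scipy 1.17.1. No libraries were duplicates, since replicate counts differed by 4.39 to 11.2 times sampling noise (chi-square per degree of freedom). Alternatives were DESeq2 1.42.0, RLE or total-count scaling, no filter, a minimum of 10 counts in every library, the replicate block, a gene length offset, limma 3.58.1 on log2(FPKM + 1), no minimum fold, the whole description field, and each library left out. Fits were tested on simulated data.

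Named genes were all tested light receptor, clock and APRR2 members, and for CONSTANS-like, Dof and GATA genes all called up to 8, otherwise the 4 largest and 4 smallest changes among those called, with the most abundant gene. Of the other pathway genes, the largest and smallest called per group and the tested HY5, COP1 and adagio genes were named. LOC103951792, LOC103937962, LOC103957816, LOC103964693, LOC103954272, LOC103945582, LOC103934615, the untested COL genes and the cyclic dof factors were chosen after their values were seen. PIE1 was left out of the clock sum after the data had been seen. The members and lists were chosen with earlier results of these data known. Promoter motifs were not analysed here.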

Additional observations from a re-analysis of the deposited data

How the results depend on the processing

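Counts of calls depended on the filter and the scale. Members called higher numbered 12 with at least 10 counts in every library, 11 with limma on log2(FPKM + 1), 33 when 236 genes were taken by the whole description, and 36 without a minimum fold, where 20 were lower. All genes gave 2205 higher and 1047 lower with at least 10 counts, 2273 and 824 with limma, and 6840 and 6435 without a minimum fold. Other pathway genes gave 1 lower with limma, and 24 higher and 32 lower without a minimum fold. With fewer genes tested, the filter of at least 10 counts leaves out genes near 0 in one group. The pseudocount of 1 shrinks changes of low genes. Leaving out each library gave 19 to 23 members higher and 6 to 8 lower, 3736 to 4060 and 1530 to 1655 of all genes, and 12 to 14 and 6 to 8 other pathway genes. The replicate numbers did not pair the libraries (correlation of deviations 0.037, 0.0027 and −0.0026 for equal numbers), and with the replicate block 19 members were higher and 6 lower.

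Among the named genes, signs turned only for 7 that did not pass the test, and the cause was not tested. LOC103955825 gave 0.012 with DESeq2, 0.019 with RLE, 0.063 with at least 10 counts, 0.0059 with the replicate block, 0.017 with limma, and −0.060 to 0.10 with a library left out. LOC103956310 gave 0.0031 with DESeq2, 0.010 with RLE, 0.054 with at least 10 counts, 0.054 with the length offset, 0.0026 with limma, and −0.054 to 0.034 with a library left out. LOC103941419 gave −0.0078 with no filter, −0.14 with the length offset, and −0.043 to 0.097 with a library left out. LOC103928909 ranged from −0.26 to 0.035 with a library left out. The length offset gave −0.19 for LOC103930273, 0.18 for LOC103943242 and 0.094 for LOC103941857. Over all tested genes the median log2 fold change rose with gene length, from −0.37 in the shortest of 5 classes to 0.38 in the longest, so values near the threshold depend on that offset. Genes under about 1 CPM are limited by depth.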
